A study of Mus musculus with 6 samples.

Results

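The NRF2 target genes are a small set of antioxidant and NADPH-supplying genes that share the transcription factor NRF2 as an activator. Here the set held 10 genes chosen by name, of the 17975 genes in the deposited table: Nfe2l2, which encodes NRF2 itself, and Nqo1, Srxn1, Txnrd1, Hmox1, Gclc, Gclm, Gsr, G6pdx and Pgd. All 10 were found in the table and all 10 passed the filter on low counts, which kept 13805 genes. RNA was sequenced from whole liver tissue of 3 homozygous hepatocyte NEK7 knockout mice (Hom, NEK7 fl/fl with Alb-Cre) and 3 wild-type mice (WT), with 1 liver per mouse. Both parental lines of the Hom mice are on a C57BL/6 background, and Cre is driven by the albumin promoter, so that the deletion is meant for hepatocytes. The labels name no treatment. The age and sex of the sequenced mice, and whether the WT mice carried a floxed allele or Cre, were not given in the sources used here.

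In unstressed cells NRF2 protein is held by KEAP1, which hands it to the CUL3 ubiquitin ligase for degradation. Oxidants and electrophiles modify KEAP1, and NRF2 then builds up, pairs with a small MAF protein in the nucleus and binds the antioxidant response element (ARE) of its target genes, a site for which BACH1 competes. In liver the pathway is known for glutathione synthesis, the repair of oxidised peroxiredoxins, quinone and heme breakdown, and the supply of NADPH that these reactions use.

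The ARE core reads TGACNNNGC, and the stretches that hold it are shown because NRF2 with its MAF partner binds this core. The RefSeq promoter table (build GRCm38.p6, 250 bases before to 50 after each start site) held 10 promoters of 7 of the 10 genes. On either strand, 6 of these 7 genes had the core in at least 1 promoter, against 14.0% of all 27025 genes in the table. By promoter, 6 of 10 held it, against 12.4% of all 32851 promoters. Nqo1 had no match in its window, which says only that these letters are not there. None of the 6 stretches held TGACTCA, the AP-1 site that can overlap the core. Each stretch is printed 5′ to 3′ on the strand on which the core reads as above, with the core in capitals.
Srxn1: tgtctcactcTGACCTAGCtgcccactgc
Nfe2l2: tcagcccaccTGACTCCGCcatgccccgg
Pgd: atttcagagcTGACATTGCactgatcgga
G6pdx: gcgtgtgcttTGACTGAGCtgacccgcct
Txnrd1: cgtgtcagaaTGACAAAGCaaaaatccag
Gclm: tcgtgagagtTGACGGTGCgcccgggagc
The Srxn1 stretch lies at chr2:152105542-152105570 on the minus strand, 32 bases downstream of the start site of this plus-strand gene. The Nfe2l2 stretch (chr2:75704885-75704913, minus strand) is 236 bases upstream of the start site. The Pgd stretch (chr4:149166061-149166089, minus strand) is 7 bases downstream of the second of its listed start sites. For G6pdx the stretch (chrX:74428919-74428947, plus strand) is 53 bases upstream, for Txnrd1 (chr10:82859104-82859132, minus strand) 88 bases upstream of the second of 3 listed start sites, and for Gclm (chr3:122245413-122245441, minus strand) 130 bases upstream. Pgd and Txnrd1 also matched a longer form with an added A at its 3′ end, which 3.04% of all promoters held. Of the 6 genes with a core, 3 (Srxn1, Nfe2l2 and Pgd) were higher in Hom livers by the test described below, which called 21.5% of all genes higher, and 3 (G6pdx, Txnrd1 and Gclm) did not pass it. Nqo1, without a core in its window, was also higher.

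The deposited estimated counts summed to between 19349418 and 19730236 per liver. Nek7, the deleted gene, was at 65.2 ± 3.36 CPM (counts scaled to library size and TMM factors, SD, n = 3) in WT and 16.4 ± 1.83 in Hom livers, or 25.2% of the WT level in the fit (edgeR adjusted p = 1.59e-04). The defining hepatocyte markers were present in every liver, with Alb at no less than 39610 CPM. The summed level of 19 hepatocyte markers was 172200 to 208000 CPM in WT and 82590 to 122000 in Hom livers, with 13 of 19 lower. With library size alone 6 of 19 were lower, and without Hom replicate 3, 7 were. The 10 cholangiocyte markers summed to 102 to 110 CPM in WT and 635 to 879 in Hom livers (8 higher), the 12 stellate cell markers to 369 to 433 and 762 to 868 (7 higher, 1 lower), and the 10 sinusoidal endothelial markers to 256 to 351 and 183 to 187 (6 lower). The 15 macrophage and Kupffer cell markers summed to 321 to 784 CPM in WT and 482 to 694 in Hom livers (3 higher, 2 lower), but 9 were higher and 1 lower without WT replicate 1 or with library size alone, and 7 were higher with DESeq2. No marker of these lists was at 0 counts in every liver. Fewer hepatocytes and less of an mRNA in each hepatocyte give the same reading in RNA from whole tissue, and the part of these shifts in the values below was not tested. WT replicate 1 stood apart among the WT livers, with macrophage markers at 784 CPM against 321 and 355 in the other two. Hom replicate 1 had no count of the Y-linked genes Ddx3y and Kdm5d, which had at least 243 counts in each of the other 5 livers. It had 149 counts of the Y-linked Uty, against 464 to 725 in the others. By Ddx3y and Kdm5d, Hom replicate 1 reads as a female liver and the other 5 as male, though Uty was not at 0. The part of sex in the values below was not tested. Without WT replicate 1, 5 members were higher and 1 lower, and without Hom replicate 1, 4 were higher and 1 lower, against 4 and 2 with all livers. Of all tested genes, 21.5% were higher and 19.4% lower without WT replicate 1, and 19.2% and 18.1% without Hom replicate 1.

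Of the 10 members, 4 were higher in Hom than in WT livers (Nfe2l2, Nqo1, Srxn1 and Pgd) and 2 were lower (Gclc and Gsr) at a Benjamini-Hochberg adjusted p under 0.05 from edgeR's quasi-likelihood test. The test weighs the difference between groups against the variation between mice, where the variance of each gene is drawn toward that of the other genes. Txnrd1, Gclm, Hmox1 and G6pdx did not pass. Among all 13805 tested genes 21.5% were higher and 20.1% lower, so calls in either direction were common in this comparison, and the 2 lower members of 10 match the background share. The median log2 fold change of the 10 members was 0.26, with a range from −1.50 for Gclc to 1.14 for Nqo1, against a median near 0 (−0.0018) over all tested genes. The 3 Hom livers lay wholly above the 3 WT livers for 5 members (28.7% of all tested genes) and wholly below them for 2 members (27% of all tested genes). With libraries scaled by size alone, the median of all genes moved to 0.45 and that of the members to 0.71. Under that scaling 6 members were higher, adding Txnrd1 and Gclm, where 47.6% of all genes were higher, and 1, Gclc, was lower, where 4.65% of all genes were.

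**Figure D1:**
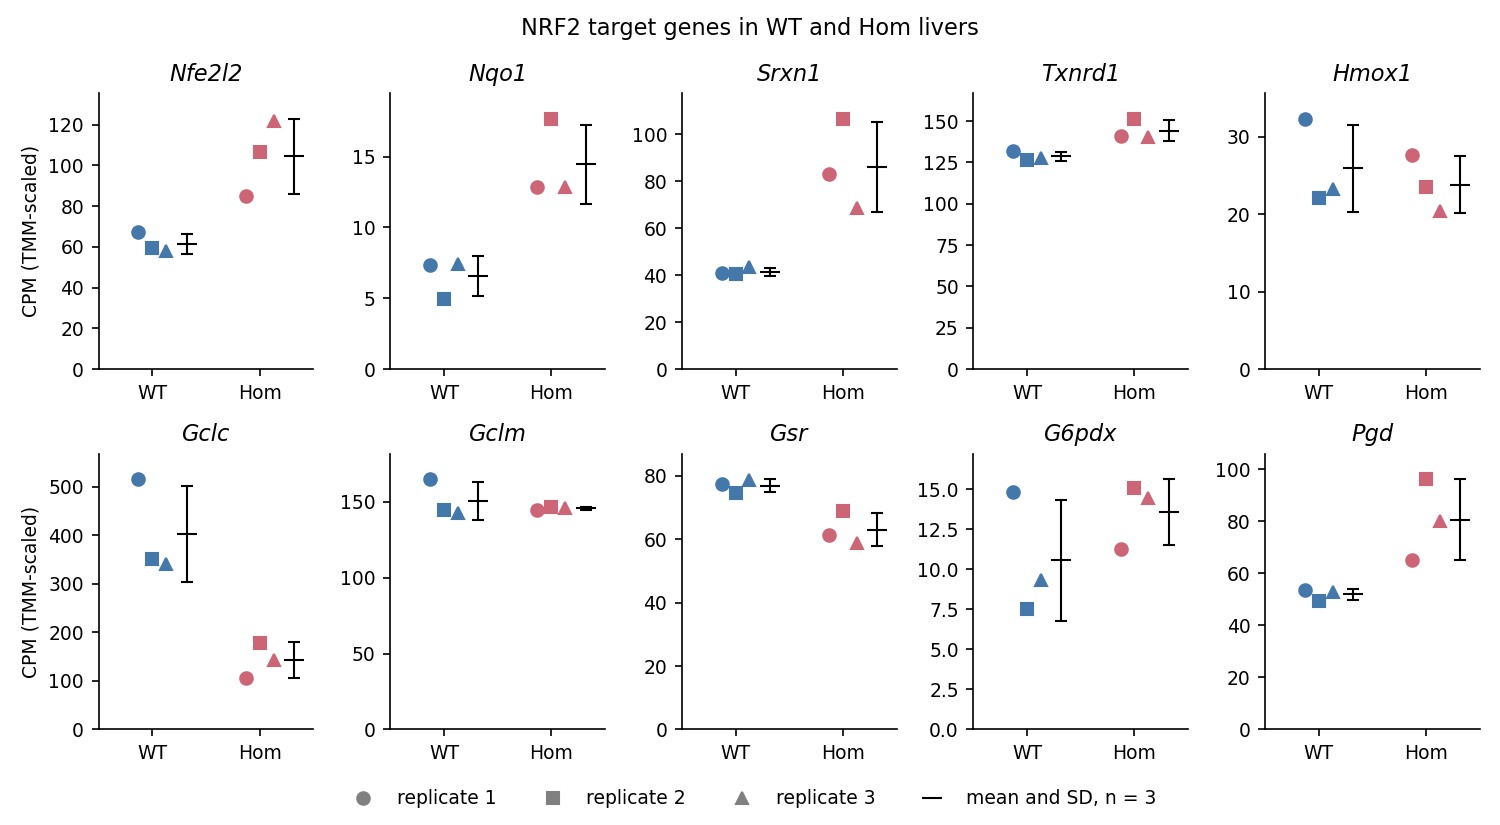
TMM-scaled CPM of the 10 NRF2 target genes, with 1 panel per gene, each y axis starting at 0, 1 point per liver (shape gives the replicate number) and the mean with SD (n = 3) in black. The groups do not overlap for Nfe2l2, Nqo1, Srxn1, Txnrd1 and Pgd, where Hom livers are above WT livers, and for Gclc and Gsr, where they are below under this scaling.

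Nfe2l2 (NCBI Gene 18024) encodes the transcription factor and lies on the minus strand at chr2:75675513-75704641 (GRCm38, GENCODE M21; positions of the other genes are from the same annotation, and all 10 are protein-coding). It was at 67.1, 59.5 and 57.9 CPM in the WT livers and at 85.0, 107 and 122 CPM in the Hom livers, in the order of replicates 1, 2 and 3 used throughout. Every Hom liver was above every WT liver, and the lowest Hom value was that of replicate 1. The fitted level rose 1.70-fold, or by 0.76 ± 0.14 on the log2 scale (SE is the standard error of the fit, edgeR adjusted p = 0.00601). The transcript level says nothing of NRF2 protein, which is controlled mainly through its stability. Keap1, the gene of its repressor, had a fitted log2 fold change of −0.0071 (95% interval −0.19 to 0.18, edgeR adjusted p = 0.950), with means of 56.4 ± 2.02 CPM in WT and 56.1 ± 3.61 CPM in Hom livers (SD, n = 3).

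Nqo1 (NCBI Gene 18104, minus strand, chr8:107388225-107403206) encodes the quinone reductase that is the most widely used readout of NRF2 activity. It had 131, 77 and 121 counts in WT and 275, 429 and 299 counts in Hom replicates 1, 2 and 3, the fewest WT counts of the 10 members. These were 7.32, 4.94 and 7.44 CPM in WT livers and 12.8, 17.7 and 12.9 CPM in Hom livers, without overlap. Nqo1 rose to 220.2% of the WT level (1.14 ± 0.21 on the log2 scale, SE, edgeR adjusted p = 0.00613). Its rise was close to that of Srxn1, and without WT replicate 2 it was 0.97 against 1.03 for Srxn1.

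Srxn1 (NCBI Gene 76650, plus strand, chr2:152105516-152111376) encodes sulfiredoxin, which repairs over-oxidised peroxiredoxins. It was at 40.8, 40.3 and 43.4 CPM in WT livers and at 83.0, 107 and 68.6 CPM in Hom livers. The WT livers were close together and the Hom livers were spread, with each Hom value above every WT value. Srxn1 rose 2.07-fold (1.05 ± 0.16 on the log2 scale, SE, edgeR adjusted p = 0.00290). Its ARE core stretch, printed above, lies just downstream of the start site.

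Txnrd1 (NCBI Gene 50493, plus strand, chr10:82833951-82897712) encodes the cytosolic thioredoxin reductase. It was at 132, 127 and 128 CPM in WT livers and at 141, 152 and 140 CPM in Hom livers. The groups did not overlap, but the difference was small: the log2 fold change was 0.16 (SE 0.077, 95% interval −0.019 to 0.35) and did not pass the test (edgeR adjusted p = 0.129). It passed under upper-quartile scaling (log2 fold change 0.25, edgeR adjusted p = 0.0370) and with library size alone (0.62, edgeR adjusted p = 0.00514).

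Hmox1 (NCBI Gene 15368, plus strand, chr8:75093621-75100589) encodes heme oxygenase 1, which splits heme and is abundant in macrophages that clear red cells. It was at 32.3, 22.1 and 23.3 CPM in WT livers and at 27.6, 23.5 and 20.3 CPM in Hom livers, so that the groups overlapped. The log2 fold change was −0.12 (95% interval −0.54 to 0.29, edgeR adjusted p = 0.601), and its sign turned with library size alone (0.31) and without WT replicate 1 (0.063). The highest value in each group was that of replicate 1. The 7 erythroid markers were also highest there, at 1413 CPM against 526 and 650 in the other WT livers and at 2163 CPM against 707 and 1155 in the other Hom livers. The macrophage and Kupffer cell markers were highest in replicate 1 of the WT livers (784 CPM) but lowest in replicate 1 of the Hom livers (482 CPM against 694 and 560). The part of either list in the Hmox1 values was not tested.

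Glutathione is built in 2 enzymatic steps. The first, which limits the rate, is run by a dimer of the catalytic subunit encoded by Gclc and the modifier subunit encoded by Gclm, and both genes are standard NRF2 targets. They parted in these livers. Gclc (NCBI Gene 14629, plus strand, chr9:77754535-77794485) was at 516, 352 and 341 CPM in WT livers and at 105, 179 and 144 CPM in Hom livers. The highest Hom liver, at 179 CPM, was far under the lowest WT liver, at 341 CPM, and WT replicate 1 stood well above the other two. Gclc fell to 35.4% of the WT level in the fit (−1.50 ± 0.24 on the log2 scale, SE, edgeR adjusted p = 0.00382), the largest change of the set under TMM scaling. Gclc was lower at an adjusted p under 0.05 in every alternative run, with log2 fold changes from −1.69 (without Hom replicate 2) to −1.04 (library size alone), and −1.28 without WT replicate 1. On the same scale the 19 hepatocyte markers ranged from −4.53 to 0.20 with a median of −0.70, or of −0.25 with library size alone. Their part in the Gclc value was not tested.

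Gclm (NCBI Gene 14630, plus strand, chr3:122245557-122270732) was at 165, 144 and 142 CPM in WT livers and at 145, 147 and 146 CPM in Hom livers. The Hom livers lay inside the range of the WT livers. The log2 fold change was −0.048, with a 95% interval from −0.26 to 0.16 (edgeR adjusted p = 0.688). Its sign turned under upper-quartile scaling (0.042) and without WT replicate 1 (0.018), and with library size alone Gclm passed as higher (0.40, edgeR adjusted p = 0.0387), below the shift of 0.45 in the median of all genes.

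Gsr (NCBI Gene 14782, plus strand, chr8:33652523-33698163) encodes glutathione reductase, which returns oxidised glutathione to its reduced form with NADPH. It was at 77.6, 74.6 and 78.7 CPM in WT livers and at 61.2, 69.0 and 58.9 CPM in Hom livers, without overlap. Gsr fell to 81.9% of the WT level (−0.29 ± 0.084 on the log2 scale, SE, edgeR adjusted p = 0.0317). This call was fragile: it was lost in 5 of the 6 fits that left out 1 liver (adjusted p 0.0565 to 0.113), held among these only without Hom replicate 2 (0.0273), was lost under upper-quartile scaling (0.103), with a stricter count filter of 10 in each liver (0.0596) and with the replicate number as a block (0.0724), and the sign turned with library size alone (log2 fold change 0.17).

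G6pdx and Pgd encode the first and the third enzyme of the oxidative pentose phosphate pathway, and each makes NADPH. G6pdx (NCBI Gene 14381, minus strand, chrX:74409483-74429194) was at 14.8, 7.51 and 9.34 CPM in WT livers and at 11.2, 15.0 and 14.5 CPM in Hom livers. The groups overlapped because WT replicate 1 was as high as the Hom livers. The log2 fold change was 0.36 (95% interval −0.24 to 0.97, edgeR adjusted p = 0.290), and without WT replicate 1 it was 0.69 and passed (edgeR adjusted p = 0.0276). The intronless copy G6pd2 is a near-identical gene, so reads may be split between them and the G6pdx counts are uncertain.

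Pgd (NCBI Gene 110208, minus strand, chr4:149149991-149166771) was at 53.5, 49.5 and 52.9 CPM in WT livers and at 65.3, 96.3 and 80.3 CPM in Hom livers. Every Hom liver was above every WT liver, with Hom replicate 1 nearest to them. Pgd rose 1.55-fold (0.63 ± 0.14 on the log2 scale, SE, edgeR adjusted p = 0.0121), and the call held in each fit that left out 1 liver.

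**Figure D2:**
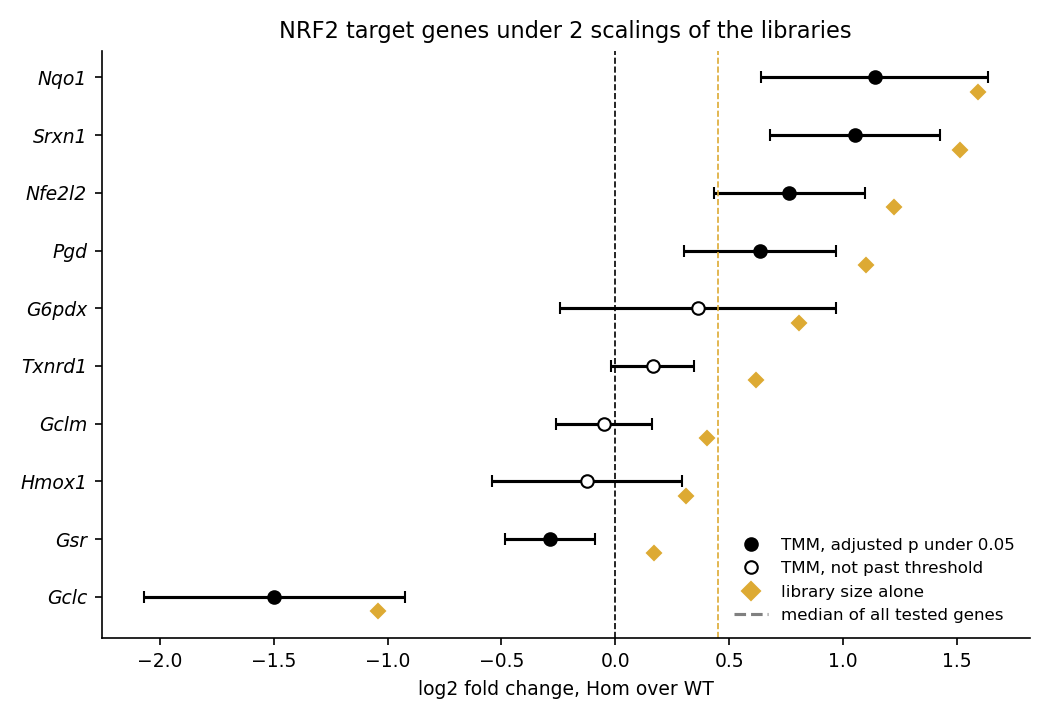
Log2 fold change (Hom over WT) of each member, with its unadjusted 95% interval under TMM scaling (circles, filled where the adjusted p was under 0.05) and the value with library size alone (diamonds). The dashed lines mark the median of all tested genes under each scaling, near 0 and at 0.45, and Gsr, Gclm and Hmox1 change sign between the scalings.

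Among Hom livers, replicate 2 held the highest value of 8 of the 10 members and replicate 1 the lowest value of 6, whereas replicate 2 was the highest Hom liver for 31.4% of all tested genes and replicate 1 the lowest for 39.4%. Among WT livers, replicate 1 was highest for 7 members and replicate 2 was lowest for 7, against 38.6% and 29.9% of all tested genes. These orders rest on genes of the same 6 libraries and are given as a description.

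Ratios between genes of the same liver do not depend on how libraries are scaled, and 6 of them were formed from the deposited TPM values (transcript levels corrected for gene length and library size). The smallest p that 3 mice against 3 allow in the exact permutation test is 0.1, so that no ratio could pass a threshold of 0.05. The ratio of Gclm to Gclc was 0.508, 0.664 and 0.674 in WT and 2.22, 1.31 and 1.63 in Hom livers. Gclc was thus the more abundant transcript of the pair in each WT liver and Gclm in each Hom liver. The mean log2 ratio moved from −0.71 ± 0.23 to 0.75 ± 0.38 (SD, n = 3), a 2.76-fold difference (exact two-sided permutation p = 0.1, adjusted over the 6 ratios 0.15).

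Gsr relative to Gclc differed in the same way, at 0.184, 0.263 and 0.287 in WT and 0.722, 0.476 and 0.508 in Hom livers, a 2.32-fold difference without overlap (exact permutation p = 0.1). Srxn1 relative to Txnrd1 was 0.373, 0.384 and 0.411 in WT and 0.711, 0.846 and 0.589 in Hom livers, again without overlap (1.82-fold, exact permutation p = 0.1). These 2 genes serve the same thiol repair system, and the ratio was above every WT value in each Hom liver. The ratio of Keap1 to Nfe2l2 was 0.610, 0.702 and 0.759 in WT and 0.512, 0.415 and 0.323 in Hom livers, 0.595 times the WT ratio and without overlap (exact permutation p = 0.1).

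The other 2 ratios overlapped between groups. Pgd relative to G6pdx was 3.87, 7.11 and 6.06 in WT and 6.21, 6.84 and 5.95 in Hom livers (exact permutation p = 0.8). The lowest value was that of WT replicate 1, without which the difference in log2 ratio was −0.055 in place of 0.20. Nqo1 relative to Nfe2l2 was 0.177, 0.135 and 0.209 in WT and 0.246, 0.270 and 0.173 in Hom livers (exact permutation p = 0.3).

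**Figure D3:**
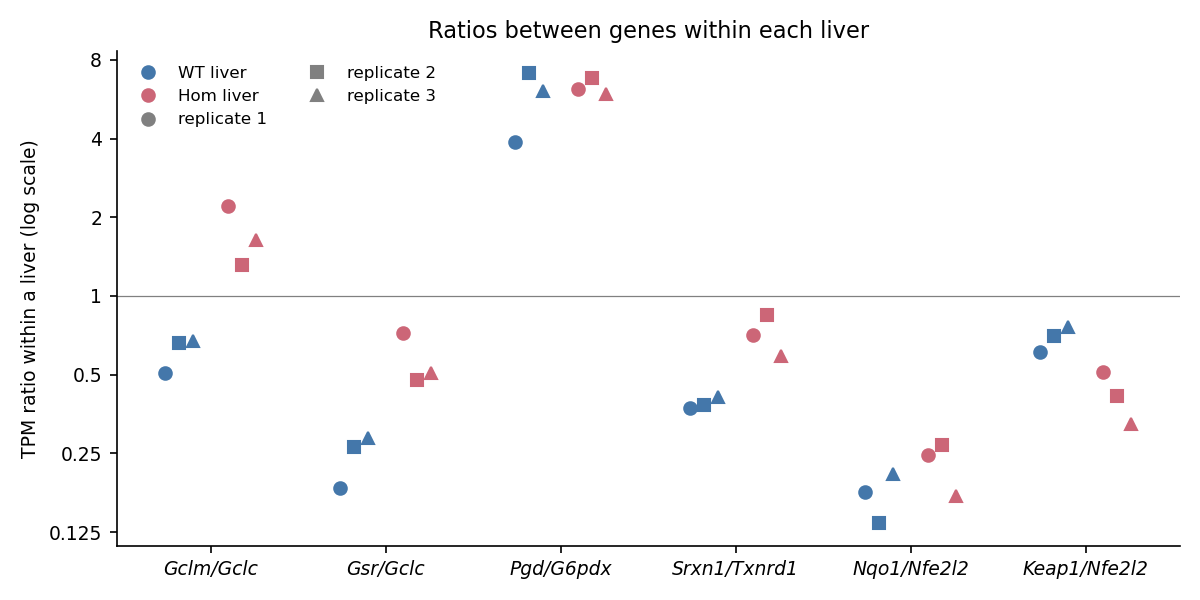
Ratio of the TPM values of 2 genes within each liver on a log axis, for 6 gene pairs, with WT livers in blue, Hom livers in red and the shape giving the replicate number. Gclm/Gclc crosses 1 between the groups, from 0.508 to 0.674 in WT to 1.31 to 2.22 in Hom livers, while Pgd/G6pdx and Nqo1/Nfe2l2 overlap.

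By length-corrected level (TPM), the members spanned from 6.35 ± 1.79 for Nqo1 to 183 ± 68.8 for Gclc in WT livers (SD, n = 3). Gclc, Gclm (108 ± 21.7) and Txnrd1 (55.8 ± 7.63) led in that order without overlap. Gsr, Nfe2l2, Pgd, Hmox1 and Srxn1 followed between 42.4 and 21.7 TPM, each overlapping its neighbour, and G6pdx (6.82 ± 3.28) and Nqo1 overlapped at the bottom. In Hom livers Gclm led at 160 ± 12.5 TPM. Gclc (98.6 ± 31.9), Txnrd1, Nfe2l2, Pgd, Srxn1 and Gsr (53.4 ± 7.38) formed a run in which each overlapped the next. Hmox1 (34.4 ± 3.66), Nqo1 (21.5 ± 5.40) and G6pdx (13.3 ± 2.86) stood below it, each apart from the next. TPM values carry no TMM factors, so they order genes within a group and do not give the change between groups. Gsr and Gclm, for example, had a higher mean TPM in Hom livers, whereas by the test Gsr was lower and Gclm did not pass.

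Of 14 listed regulators and partners of NRF2, 2 were higher, 2 were lower and 10 did not pass, or 14.3% in each direction against 21.5% higher and 20.1% lower among all genes. With library size alone, 6 were higher and 0 lower. Mafk, a small MAF partner of NRF2, rose (19.3 ± 1.64 to 28.3 ± 6.59 CPM, log2 fold change 0.56, edgeR adjusted p = 0.0419), a call lost in 5 of the 6 fits that left out 1 liver (adjusted p up to 0.138). Trim21, a ubiquitin ligase that acts on p62, rose (log2 fold change 0.83, edgeR adjusted p = 0.0137), a call lost without Hom replicate 2 (0.0524) and without Hom replicate 3 (0.0534). Bach2, a BACH1 relative known mostly from lymphocytes, and Nfe2l1, which encodes the related factor NRF1, fell (log2 fold changes −0.91 and −0.39, edgeR adjusted p = 0.00740 and 0.0337). The Nfe2l1 call was lost under upper-quartile scaling (adjusted p = 0.0761) and in 5 of the 6 fits that left out 1 liver (0.0709 to 0.104), all but that without WT replicate 1, and its log2 fold change turned to 0.078 with library size alone. Bach2 did not pass with library size alone (0.0680). Bach1 (−0.31), Mafg (−0.083) and Sqstm1 (−0.075), which encodes p62, did not pass (edgeR adjusted p = 0.217, 0.495 and 0.735).

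A wider list of 41 genes known as NRF2 targets, most of them detoxifying enzymes, moved in both directions. Of 40 tested, 10 were higher, 6 lower and 24 did not pass, or 25.0% and 15.0% against 21.5% and 20.1% of all genes, with a median log2 fold change of 0.055. The largest rises were those of Gpx2, a glutathione peroxidase known from epithelia, with 10, 2 and 2 counts in WT and 138, 220 and 127 counts in Hom livers (4.62 ± 0.52 on the log2 scale, SE, edgeR adjusted p = 0.00108), and of Akr1b7, an aldo-keto reductase, with 10, 3 and 0 counts in WT and 165, 171 and 103 counts in Hom livers (4.60, SE 0.69, edgeR adjusted p = 0.00293). Both rose from a few counts, and without WT replicate 1 their log2 fold changes were 5.73 for Gpx2 and 5.99 for Akr1b7. Across the fits that left out 1 liver they ranged from 4.28 to 5.73 and from 4.03 to 5.99. The cholangiocyte markers, also epithelial genes, were higher in the same livers. The part of those cells was not tested.

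Gsta1, a glutathione transferase, rose from 5.57 ± 2.86 to 44.7 ± 16.5 CPM (log2 fold change 3.00, edgeR adjusted p = 0.00207), although the near-identical Gsta2 makes the split of reads uncertain. The largest falls were those of Gstp1 (2649 ± 1090 to 819 ± 59.4 CPM, log2 fold change −1.69, edgeR adjusted p = 0.00758), Gsta3 (1509 ± 106 to 539 ± 180 CPM, −1.48, edgeR adjusted p = 0.00493) and Adh7 (−1.45, edgeR adjusted p = 0.00288). Gsta3 and Gstp1 are transferases of high level in mouse liver. Gstm1, another abundant transferase, did not pass (log2 fold change 0.21, 95% interval −0.34 to 0.76). With library size alone, 17 of the 40 were higher and 3 lower.

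In the list of glutathione synthesis and recycling, 5 of 17 tested genes were higher and 8 lower, or 29.4% and 47.1% against 21.5% and 20.1% of all genes, with a median log2 fold change of −0.29. Gss, which runs the second step of glutathione synthesis, rose from 73.6 ± 10.4 to 95.9 ± 3.91 CPM (log2 fold change 0.38, edgeR adjusted p = 0.0310), opposite in sign to Gclc. The Gss call was not followed through the other fits. Leaving out 1 liver gave 3 to 4 higher genes in this list, against 5 with all livers. Gpx4, the peroxidase of membrane lipids, rose from 241 ± 15.9 to 424 ± 43.9 CPM (0.81, edgeR adjusted p = 0.00249), and the glutamyl transferase genes Ggt6 (1.13) and Ggt5 (0.88) also rose (edgeR adjusted p = 0.00165 and 0.0409). The remaining rise, outside the naming rule and named after its value was seen, was that of Ggt7 (2.31 on the log2 scale), a gene of under 1 CPM on average. The call of Ggt5 was lost in each fit that left out 1 liver (adjusted p 0.0552 to 0.110).

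Besides Gclc, the largest falls in that list were those of Chac1, which breaks glutathione down, and Glo1, which clears methylglyoxal with glutathione as cofactor (log2 fold changes −1.61 and −1.36, edgeR adjusted p = 0.0199 and 6.13e-04). Chac1 did not pass without WT replicate 3 (0.0543) or with library size alone (0.0605). Slc7a11, the cystine importer and a textbook NRF2 target, had 3 to 20 counts in WT and 4 to 5 counts in Hom livers and was not tested. With library size alone, 6 genes of the list were higher and 3 lower, and the list median was 0.17 against 0.45 for all genes.

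The thioredoxin and peroxiredoxin genes other than the members were lower or did not pass: of 14 tested, 9 were lower and 0 higher (median −0.42 on the log2 scale), against 20.1% lower among all genes. Srxn1 was the only gene of the full list of 16 that rose with TMM scaling. Txnip, an inhibitor of thioredoxin that responds to glucose, fell from 126 ± 21.9 to 66.8 ± 13.9 CPM (log2 fold change −0.91, edgeR adjusted p = 0.00904), Sesn2 fell by 0.83 and Prdx6 by 0.66 on the log2 scale (edgeR adjusted p = 0.0210 and 0.00598). The Sesn2 call was lost without Hom replicate 1 (0.0524) and without Hom replicate 2 (0.0692), and with library size alone none of Txnip (0.109), Sesn2 (0.227) and Prdx6 (0.197) passed. Txn1 and Prdx1, the cytosolic thioredoxin and the main substrate of sulfiredoxin, did not pass (−0.21 and −0.12, edgeR adjusted p = 0.173 and 0.436). The counts moved with the scaling. By library size alone, 0 of the full list were lower and 5 higher, and its median was 0.19, again under that of all genes.

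Pgd was likewise the only gene of the pentose phosphate and NADPH list that rose with TMM scaling. Of the 13 others, 5 were lower and 8 did not pass, which makes 33.3% of the full list of 15 lower against 20.1% of all genes. Among the genes past the threshold, the largest falls were those of Aldh1l1 (log2 fold change −0.72) and Mthfd1 (−0.71), both of folate metabolism, and of H6pd (−0.52), the form of glucose-6-phosphate dehydrogenase in the endoplasmic reticulum (edgeR adjusted p = 0.0200, 0.00306 and 0.0141). The call of Aldh1l1 was lost with the replicate block (adjusted p = 0.0519), with library size alone (0.153) and in 4 of the 6 fits that left out 1 liver (0.0530 to 0.0784). H6pd did not pass without WT replicate 2, without Hom replicate 2 (0.0560) or with library size alone (0.737), nor did Mthfd1 with library size alone (0.0735). Tkt and Taldo1, of the non-oxidative branch, did not pass (−0.21 and −0.12), and Me1, another NADPH source under NRF2 control, was at 246 ± 59.8 CPM in WT and 140 ± 47.5 CPM in Hom livers without passing (−0.81, 95% interval −1.51 to −0.12, edgeR adjusted p = 0.0615). With library size alone, 3 of the 15 were higher and 0 lower.

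Of 9 tested genes of heme breakdown and iron storage, 11.1% passed in each direction, against 21.5% higher and 20.1% lower among all genes: 1 was higher (Slc48a1, a heme transporter, log2 fold change 0.40, edgeR adjusted p = 0.00929) and 1 lower (Hmox2, the constitutive heme oxygenase, −0.34, edgeR adjusted p = 0.0409). The call of Hmox2 was lost in 4 of the 6 fits that left out 1 liver (adjusted p 0.0941 to 0.1246), under upper-quartile scaling and under both other count filters, and its log2 fold change turned to 0.11 with library size alone. Blvrb, which works downstream of heme oxygenase, did not pass (−0.73, 95% interval −1.38 to −0.089, edgeR adjusted p = 0.0672), although its groups did not overlap.

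**Figure D4:**
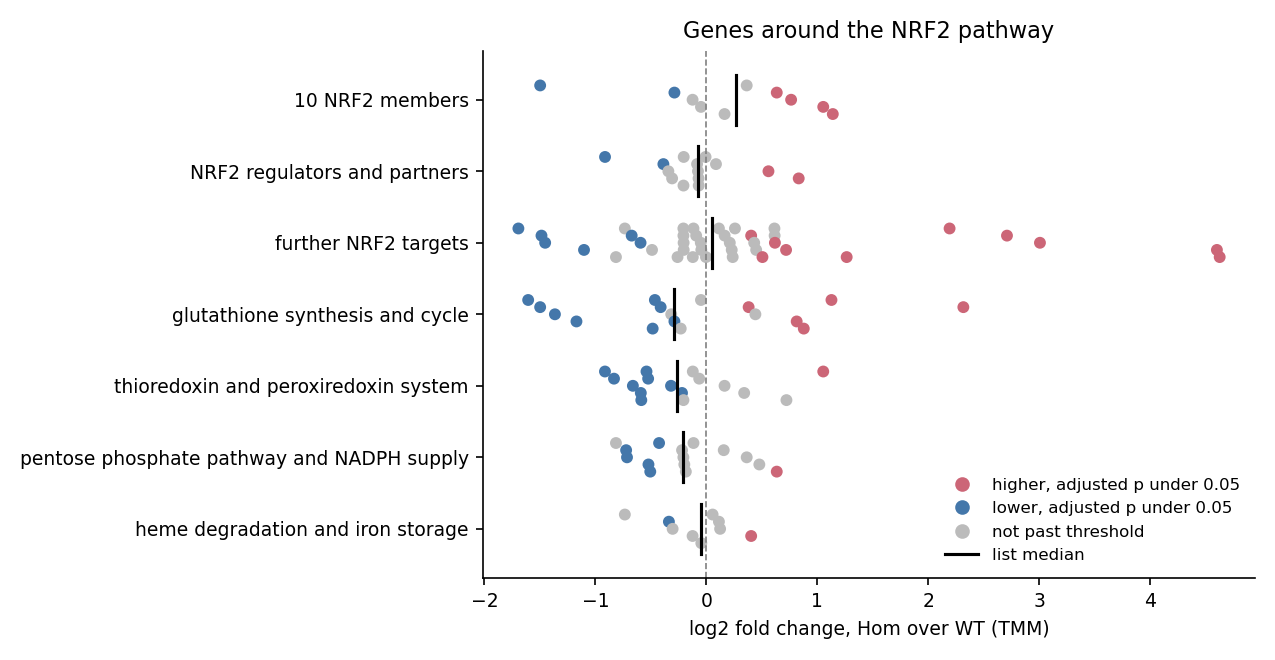
Log2 fold change (Hom over WT, TMM scaling) of every tested gene of the member list and of 6 lists around the NRF2 pathway, coloured by call at an adjusted p under 0.05, with the median of each list as a black line. The further NRF2 targets spread from −1.69 to 4.62 around a median of 0.055, while 9 thioredoxin and peroxiredoxin genes were lower and 1, Srxn1, was higher; with library size alone, none of that list was lower.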

How the data were processed

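Liver RNA of 3 WT and 3 Hom mice was sequenced on the DNBSEQ platform. The authors deposited estimated counts (expected counts, not scaled between livers), TPM and FPKM values per gene and liver. The submitters' processing notes name HISAT2 2.0.4, Bowtie2 2.2.5, RSEM 1.2.12 and the build mm9. Annotation and strandedness are not given in the sources used here. The deposited group means carry crossed names (for 17975 of 17975 genes the mean named for the control group equals that of the Hom livers within 0.01) and were not used.

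Counts were rounded (65.9% were whole) and tested in R 4.3.3 with edgeR 4.0.16: filterByExpr, TMM factors (0.806 to 1.23), glmQLFit and glmQLFTest over 3 Hom and 3 WT livers, and Benjamini-Hochberg adjustment over 13805 genes. Standard errors are the log2 fold change divided by the root of F. Intervals on fold changes are unadjusted. TPM served for levels and for ratios, which were tested by exact permutation; FPKM served as an alternative for ratios. DESeq2 1.42.0 was an alternative. The test was checked on simulated data. No 2 livers of a group were copies of each other (chi-square over degrees of freedom at least 23.8).

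The members and the gene lists were chosen with earlier results of these data known. Named genes were the members, Nek7, 14 fixed partner genes and, in each pathway list, the 3 largest rises and 3 largest falls at an adjusted p under 0.05, where the mean level reached 1 CPM. Positions are GRCm38, a build other than that of the counts. Promoters were searched for the ARE core on both strands. Further lists held proliferation genes (9 of 12 higher, 5 with the replicate block or without Hom replicate 3, 3 without Hom replicate 2), lymphocyte and neutrophil markers (3 of 11 tested higher, 5 without WT replicate 1, 1 with the block or without WT replicate 3, and fewer without WT replicate 2, Hom replicate 2 or Hom replicate 3) and erythroid markers (1 of 6 tested lower, and 4 higher with the block or without WT replicate 1).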

Additional observations from a re-analysis of the deposited data

How the results depend on the processing

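Nfe2l2, Nqo1, Srxn1, Pgd and Gclc kept their call and direction with DESeq2, both other scalings, both other count filters, the replicate block and each fit without 1 liver. Over 33 genes (the members and those named by rank in a list, without Nek7 and the fixed partners), 347 of 427 comparisons kept call and direction, 69 lost the call, 3 gained it and 8 turned sign. The cause of these changes was not tested, beyond the common shift of 0.45 that scaling by library size alone gives to the median of all genes.

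With library size alone, 1 member was lower, and the higher and lower counts were 6 and 0 for regulators, 17 and 3 for further targets, 3 lower for glutathione, 5 and 0 for thioredoxin, 3 and 0 for the pentose phosphate list and 2 and 0 for heme. Signs turned there for Gclm (0.40), Hmox1 (0.31), Gsr (0.17), Nfe2l1 (0.078) and Hmox2 (0.11), with 1 member wholly below WT. Under upper-quartile factors, 1 member and 1 regulator were lower, 3 thioredoxin genes were higher, 0 heme genes were lower and Gclm turned to 0.042. With at least 10 counts in every liver, 1 member was lower, 2 thioredoxin genes were higher and 0 heme genes were lower, as also without a filter (0). DESeq2 gave 2 lower heme genes. A log2 fold change of at least 1 left 2 members higher and 1 lower, 0 and 0 regulators, 6 further targets higher, 2 and 4 glutathione genes, 0 lower thioredoxin genes, 0 and 0 pentose phosphate genes and 0 and 0 heme genes. Of all tested genes, 13.2% were higher and 4.2% lower at that cutoff. Upper-quartile factors called 25.2% of all tested genes higher and 14.9% lower, and the filter of 10 counts in every liver 20.9% and 19.4%. The longer ARE form matched 2 member genes.

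Leaving out 1 liver gave 4 to 5 members higher and 1 to 2 lower, 0 to 2 and 1 to 4 regulators, 8 to 12 and 4 to 8 further targets, 3 to 4 and 5 to 7 glutathione genes, 1 to 2 and 5 to 7 thioredoxin genes, 1 to 2 and 3 to 5 pentose phosphate genes, and 1 to 1 and 0 to 1 heme genes. These fits called 14.2% to 21.5% of all tested genes higher and 12.6% to 19.4% lower. The log2 fold change ranged from −0.094 to 0.018 for Gclm and from −0.24 to 0.063 for Hmox1, and the log2 difference in the ratio of Pgd to G6pdx from −0.055 to 0.38. Each of the 3 turned sign without WT replicate 1.

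Labels give both groups replicates 1, 2 and 3, but the mice differ and same-numbered livers did not deviate together (correlations −0.109, −0.0563 and −0.0494). With the replicate block, 4 members were higher and 1 lower, and calls over all genes went from 2974 to 2383 higher and from 2780 to 2214 lower. Depth limits, among others, the values of Gpx2 and Akr1b7, which had 10 or fewer counts in each WT liver.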

Other observations

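Genes of the wider NRF2 target list that the naming rule left out are given here, chosen after their values were seen. Gstm3, a glutathione transferase, was at 178 ± 15.0 CPM in WT and 1164 ± 348 CPM in Hom livers (SD, n = 3; log2 fold change 2.71, adjusted p = 6.03e-04 from edgeR), although its near-identical relatives make the split of reads uncertain. Slc48a1, given above among the heme genes, is also in that list and was higher. The remaining genes of that list that were higher were Cbr3 (2.19), Ptgr1 (1.26), Abcc4 (0.72), Htatip2 (0.62) and Ugdh (0.51). They encode carbonyl and prostaglandin reductases, an export pump, a short-chain dehydrogenase and the enzyme that supplies glucuronic acid. The others that were lower were Gstm6 (−1.10), Ugt1a6a (−0.67) and the canalicular pump Abcc2 (−0.59). These 8 values are log2 fold changes at an adjusted p under 0.05 from edgeR.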
